A study of Mus musculus with 3 samples.

Results

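The genes described here are 6 regulators of G protein signalling (Rgs1, Rgs2, Rgs10, Rgs14, Rgs16 and Rgs19) and 4 G protein alpha subunits (Gnai2, Gnai3, Gna13 and Gnaq). They were found by their GENCODE M21 symbols, and all 10 were present among the 55536 genes quantified in every library. Polyadenylated RNA had been sequenced from primary effector memory T cells, CD4-positive and with an alpha-beta receptor, of 1 adult male C57BL/6J mouse aged 7 months. By the labels the 3 libraries are technical replicates of biological replicate 1, and they are called libraries 1, 2 and 3 by their replicate numbers. The labels name no treatment, no method of cell isolation and no second condition, so the values describe 1 group, and every SD and p-value below covers only the spread between libraries of 1 mouse.

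Heterotrimeric G proteins relay signals from receptors that span the membrane several times, among them the chemokine and sphingosine-1-phosphate receptors that steer T cell migration. A receptor that binds its ligand makes the alpha subunit exchange GDP for GTP, and the alpha subunit and the beta-gamma pair then act on separate effectors. RGS proteins speed up the hydrolysis of GTP by the alpha subunit and so end the signal. Alpha subunits of the Gi class lower cyclic AMP and carry most chemokine signals, those of the Gq class activate phospholipase C beta, and those of the G12 class act through guanine nucleotide exchange factors.

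The 10 genes spanned a wide range of levels in TPM, a measure of transcript abundance scaled by transcript length and library size. Gnai2 and Rgs1 stood highest, at 478 ± 11.3 and 453 ± 12.0 TPM (mean ± SD, n = 3 libraries, as for every ± below). Gnaq stood lowest, at 1.98 ± 0.212 TPM. For scale, 10013 of 22028 protein-coding genes had at least 1 TPM in every library, with a median of 28.0 TPM among them. Of the 10 genes 9 lay above that median. The 10 genes and the gene lists below were chosen with earlier results of these data known. Their standing among other genes, and their share of a family, are therefore not independent of that choice. In bulk RNA such as this, a lower level in every cell and a smaller share of cells with the transcript cannot be told apart.

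For 3 of the genes, Rgs1, Rgs2 and Gna13, much of the level was assigned to a short annotated transcript whose reading frame ends early. For Rgs2 and Gna13 the sequences show where the coding sequence of the short transcript parts from that of the full-length one. Each run holds the last 18 shared coding bases and the next 12 bases of the transcript, 5′ to 3′, from the GENCODE M21 transcripts on GRCm38 (mm10). Capitals mark the stop codon that ends the reading frame of the short transcript. The Rgs2 runs start at chr1:144002952-144002969 on the minus strand and go on at chr1:144002830-144002841 in Rgs2-202 and at chr1:144002940-144002951 in Rgs2-201. The Gna13 runs start at chr11:109365745-109365762 on the plus strand and go on at chr11:109392346-109392357 in Gna13-201 and at chr11:109380215-109380226 in Gna13-202.
Rgs2-202: acagcaaacttttatcaagccttctcctga
Rgs2-201: acagcaaacttttatcaagTAAgtttcgga
Gna13-201: cgccgggaattccagctgggtgagtctgta
Gna13-202: cgccgggaattccagctgatggagaccTGA
In Rgs2-201 the stop codon ends 4 bases past the last shared coding base, and in Gna13-202 it ends 12 bases past it. The annotated reading frames hold 46 codons in Rgs1-204 against 209 in Rgs1-208, 71 in Rgs2-201 against 211 in Rgs2-202, and 173 in Gna13-202 against 377 in Gna13-201. GENCODE classes Rgs1-204 and Rgs2-201 as targets of nonsense-mediated decay, the pathway that degrades transcripts with an early stop codon. It classes Gna13-202 as protein coding. The GENCODE transcript support level, best at 1 and weakest at 5, is 5 for Rgs1-204 and Rgs2-201. It is 1 for Rgs1-208, Rgs2-202, Gna13-201 and Gna13-202.

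**Figure D1:**
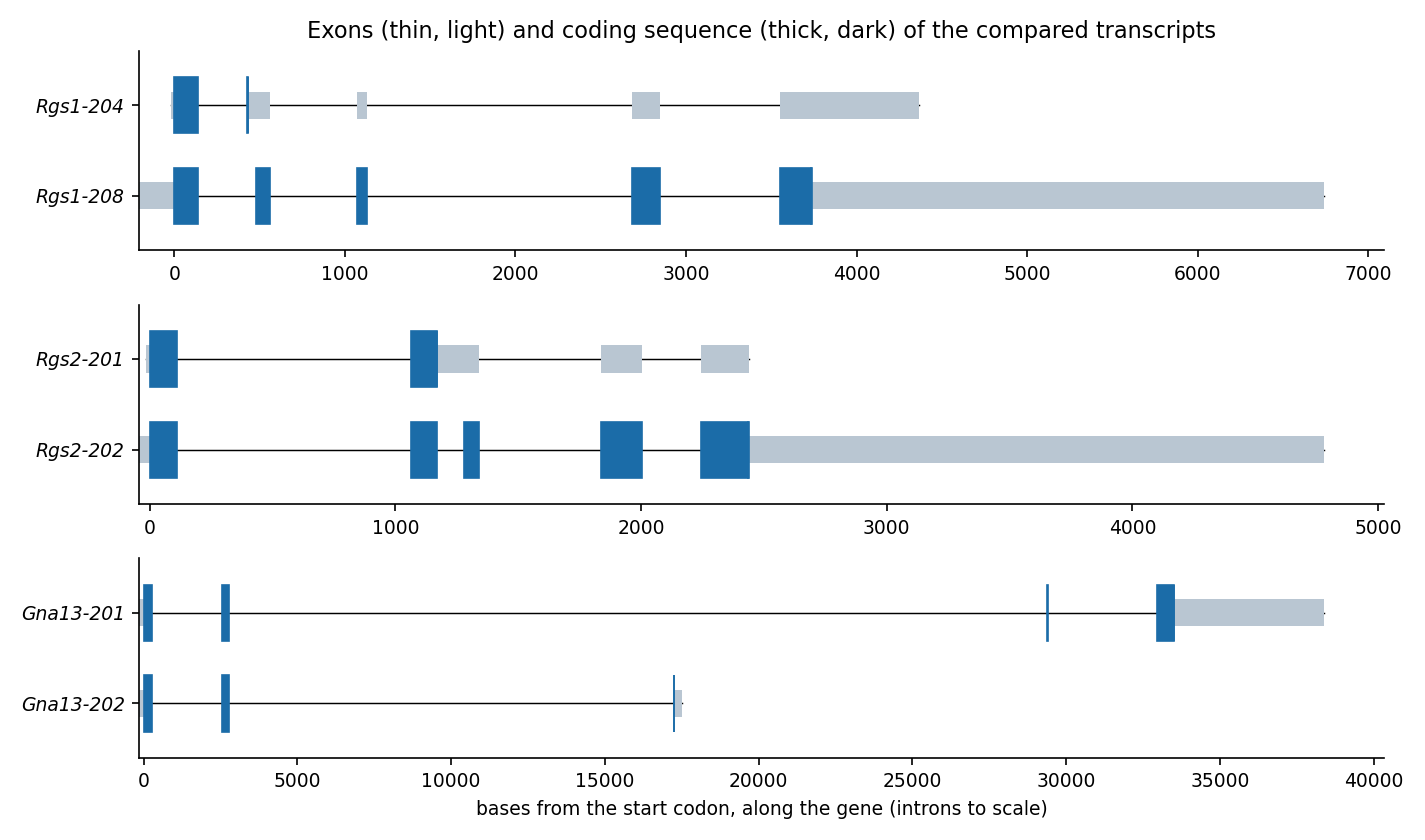
Exons and coding sequence of the compared transcripts of Rgs1, Rgs2 and Gna13, with the distance from the start codon along the gene in bases on the x axis, thin bars for exons and thick bars for coding sequence including the stop codon. The short transcripts (Rgs1-204 of 1328 bases, Rgs2-201 of 763 and Gna13-202 of 914) lack the long last exon sequence of Rgs1-208 (3841 bases), Rgs2-202 (3021) and Gna13-201 (6160).

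Among the RGS genes, Rgs1 (ENSMUSG00000026358.13, chr1:144242296-144249242, minus strand) encodes an RGS protein of activated lymphocytes that dampens chemokine responses. It measured 452.2, 465.7 and 441.8 TPM in libraries 1, 2 and 3, from 5865, 5443 and 5122 estimated counts. The levels lay close together, and Rgs1 alone made up 46.4% ± 1.05 of the summed TPM of 21 RGS family genes. Its level stood higher than that of 98.6% of protein-coding genes.

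Most of the Rgs1 level was assigned to Rgs1-204, whose annotated reading frame does not encode the full protein and whose support level is the weakest, 5. Of the Rgs1 TPM, Rgs1-204 took 77.4%, 79.1% and 79.1% in the 3 libraries, a mean of 78.5% ± 1.02. The 4 transcripts classed as targets of nonsense-mediated decay took 85.1% ± 0.131 together, the 3 with a retained intron 14.8% ± 0.118, and the 2 protein-coding ones 0.0228% ± 0.0166. Rgs1-203, a retained-intron transcript and the next highest, took 12.7% ± 0.344. By estimated counts rather than TPM, Rgs1-204 held 76.4% ± 0.449, and the posterior SD of its count, which measures how surely reads were assigned among transcripts, was at most 0.996% of that count.

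Rgs1-204 shares 1279 of its 1328 bases with the full-length transcript Rgs1-208, which differs from it at several places at once. Rgs1-208 has 2377 more bases at the 3′ end (chr1:144242296-144244672) and 185 more at the 5′ end. It lacks 49 bases that begin the second exon of Rgs1-204. The other protein-coding transcript, Rgs1-207, is 409 bases long and received 0 counts in every library. The estimates are made over whole transcripts, and which of these differences the reads bore out was not tested, since the files hold no coverage along the gene. Because TPM divides by length, the gene level depends on this assignment too.

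For comparison, 7104 protein-coding genes had a mean of at least 10 TPM and 2 or more annotated transcripts. The leading transcript was protein coding in 85.2% of them and classed for nonsense-mediated decay in 319, or 4.49%. In 25 of those 319, Rgs1 included, the leading transcript held a share at or above that of Rgs1-204. The share was also steady: 89.9% of these genes had an SD of the leading share at or above that of Rgs1.

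Rgs2 (ENSMUSG00000026360.9, chr1:143999338-144004161, minus strand) lies on the same chromosome, and its protein acts with some preference on the Gq class. It measured 200.9, 173.6 and 196.2 TPM, from 3056, 2436 and 2684 estimated counts, a mean of 190.2 ± 14.6 TPM. Library 2 was the lowest. Rgs2 made up 19.5% ± 1.50 of the RGS family TPM.

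The Rgs2 transcripts ranked differently by TPM and by counts. The short Rgs2-201, in which the intron after the second exon is kept (110 bases, chr1:144002842-144002951), took 41.1%, 48.7% and 40.7% of the TPM but 19.9% ± 1.74 of the counts. The full-length Rgs2-202 took 37.6%, 39.5% and 38.8% of the TPM and 73.7% ± 0.488 of the counts. By TPM Rgs2-201 was ahead in every library, though by less than its SD of 4.49 percentage points in libraries 1 and 3, whereas by counts the full-length transcript held most of the gene. The third transcript, the protein-coding Rgs2-204, took 15.2% ± 4.85 of the TPM.

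**Figure D2:**
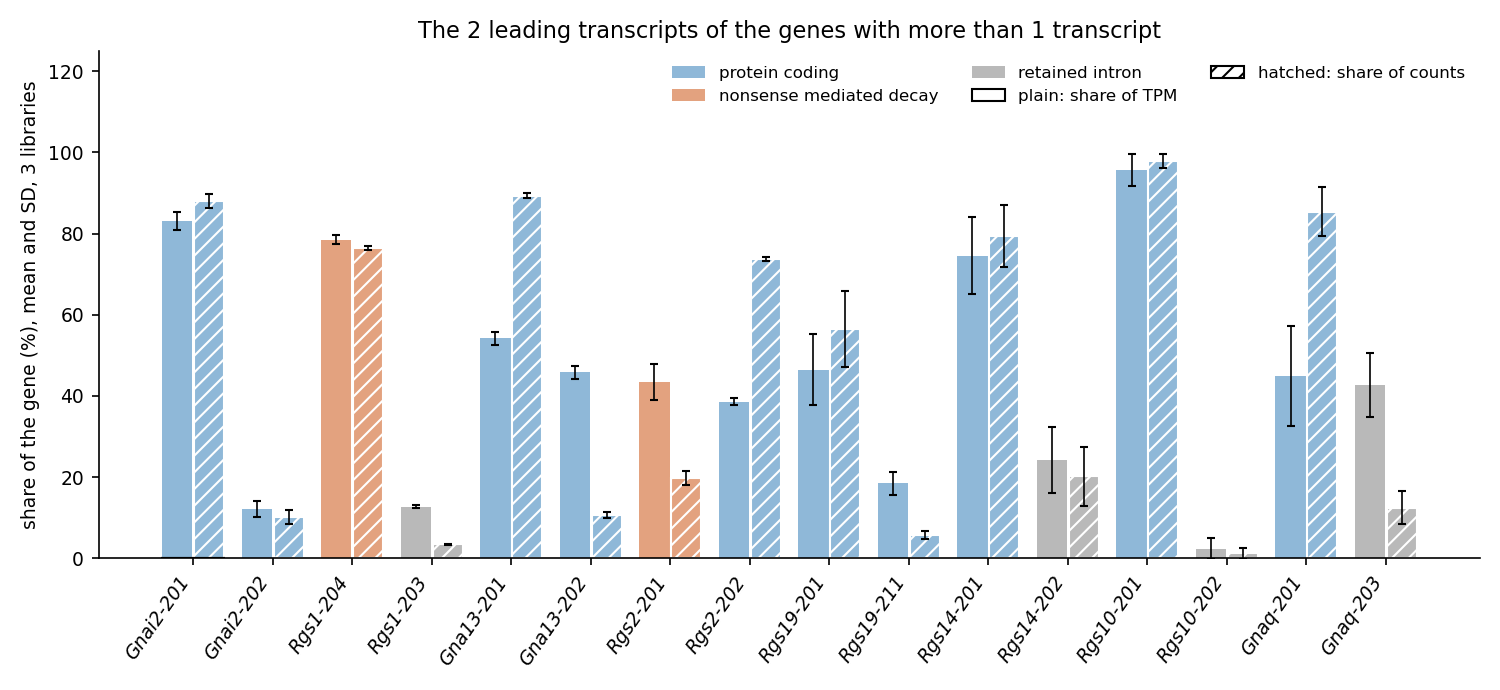
Share of the gene taken by the 2 leading transcripts of each of the 8 genes with more than 1 annotated transcript, in percent on the y axis, as the mean of 3 libraries with the SD. Plain bars give the share of TPM and hatched bars the share of estimated counts, with colour for the GENCODE class; Rgs1-204 leads on both scales (78.5% and 76.4%), whereas Rgs2-201 and Gna13-202 fall from 43.5% to 19.9% and from 45.8% to 10.7%.

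Rgs19 (ENSMUSG00000002458.13, chr2:181688419-181693977, minus strand) encodes an RGS protein that acts on Gi class subunits. Its levels of 97.1, 101.6 and 98.1 TPM came from 1191, 1059 and 1023 estimated counts. With a coefficient of variation of 2.39% it was among the steadiest of the 10 genes. Its 12 annotated transcripts were less steady: the leading Rgs19-201 took 56.3%, 43.4% and 39.6% of the TPM, and the posterior SD of its count reached 18.9% of that count. Rgs19-211 followed with 18.5% ± 2.90 and Rgs19-202 with 16.1% ± 3.06, and 95.7% ± 0.648 of the TPM lay in protein-coding transcripts.

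Rgs14 (ENSMUSG00000052087.14, chr13:55369732-55384687, plus strand) and Rgs10 (ENSMUSG00000030844.11, chr7:128373621-128418758, minus strand) belong to the same RGS subfamily. The Rgs14 protein carries, beside its RGS domain, a GoLoco motif that binds GDP-loaded Gi subunits. Rgs14 measured 54.6, 64.0 and 59.4 TPM from 1212, 1226 and 1094 estimated counts. Rgs10 measured 58.3, 51.8 and 58.7 TPM from 474, 363 and 428 estimated counts. The ranges overlap, Rgs10 being the higher of the pair in library 1 and Rgs14 in the other libraries, and these were the only neighbours in the order of the 10 genes whose ranges did so.

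The estimated shares of the Rgs14 transcripts varied between libraries. The full-length Rgs14-201, of 547 codons, took 85.0%, 71.5% and 66.8% of the TPM, and the retained-intron transcript Rgs14-202 took 14.8%, 28.1% and 29.6%. Library 1 had the highest share of Rgs14-201 and the lowest of Rgs14-202. The posterior SD of the Rgs14-202 count reached 35.3% of that count, and whether the shares differed beyond this uncertainty was not tested. Of the 7104 genes, 16.1% had an SD of the leading share at or above the 9.46 percentage points of Rgs14. In Rgs10 the full-length Rgs10-201 held 95.7% ± 3.90 of the TPM, and Rgs10-202, with a retained intron, held 2.44% ± 2.62.

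Rgs16 (ENSMUSG00000026475.7, chr1:153740349-153745468, plus strand) encodes an RGS protein induced in activated lymphocytes. It measured 41.1, 41.3 and 43.6 TPM from 937.99, 836.09 and 878 estimated counts, a mean of 42.0 ± 1.38 TPM. It has 1 annotated transcript, of 201 codons. A gene on the opposite strand, Gm28513, overlaps its exons, by 236 bases in the longest overlap of any exon pair. Gm28513 measured 0.490 TPM on average, and the sources used here do not say whether counting used strand.

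**Figure D3:**
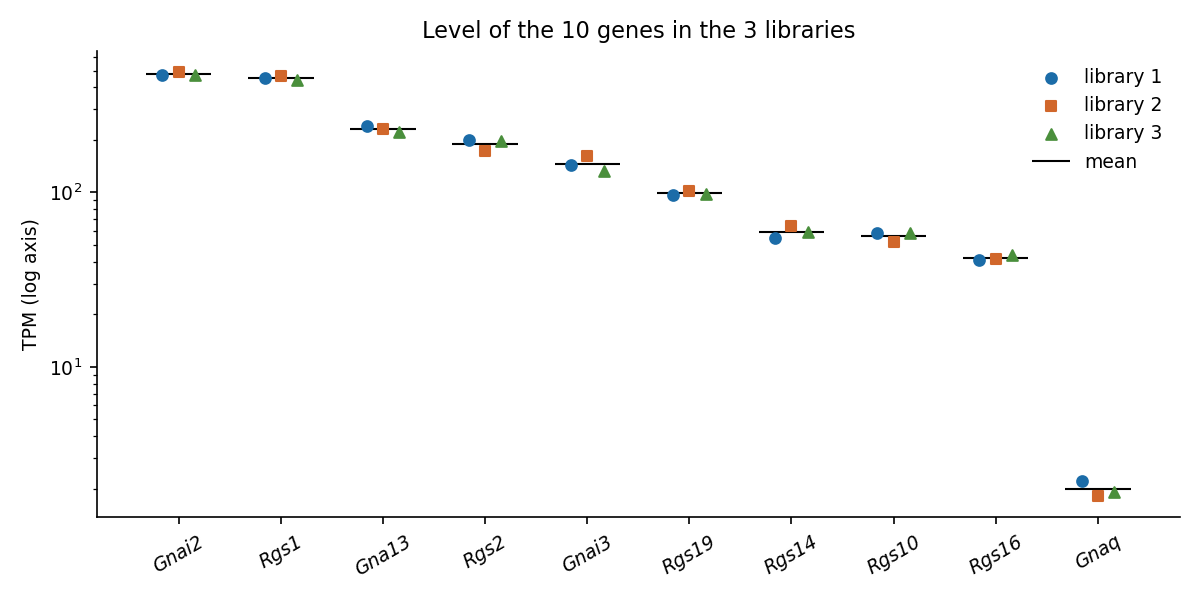
Level of the 10 genes in TPM on a log axis, with 1 point per library and a line at the mean of 3 libraries. Gnai2 (478 TPM) and Rgs1 (453 TPM) lie at the top, Rgs14 and Rgs10 overlap at 59.3 and 56.3 TPM, and Gnaq lies alone at 1.98 TPM.

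Of the alpha subunits, Gnai2 (ENSMUSG00000032562.13, chr9:107614125-107635367, minus strand) encodes the main Gi subunit of lymphocytes. It measured 473.9, 490.7 and 469.3 TPM from 9629, 8921 and 8356 estimated counts. Its level exceeded that of Rgs1 in every library, by a ratio of 1.05 ± 0.00704 in TPM. Without scaling by length the ratio was 1.64 in estimated counts and 1.80 in the second gene table, so the near-equal TPM rests on the transcript lengths to which the reads were assigned. Gnai2-201 took 83.0% ± 2.20 of its TPM and Gnai2-202 12.2% ± 1.95. Both have a reading frame of 355 codons.

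Gnai3 (ENSMUSG00000000001.4, chr3:108107280-108146146, minus strand) encodes a second Gi subunit. It measured 143.6, 160.9 and 132.1 TPM from 4592, 4573 and 3733 estimated counts. Library 2 was the highest and library 3 the lowest, a spread that returns in the comparison of libraries. Gnai2 made up 76.2% ± 1.17 of the TPM of the 8 Gi class genes and Gnai3 23.2% ± 1.41. Gnai3 has 1 annotated transcript, of 354 codons.

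Gna13 (ENSMUSG00000020611.14, chr11:109362831-109401369, plus strand) encodes the G12 class subunit that acts on these exchange factors. It measured 241.5, 230.0 and 223.2 TPM from 9104.53, 7361.26 and 7293.54 estimated counts, a mean of 232 ± 9.25 TPM. Library 1 was the highest. The full-length Gna13-201 took 54.2% ± 1.62 of the TPM and the short Gna13-202 45.8% ± 1.62, but by estimated counts the shares were 89.3% ± 0.627 and 10.7% ± 0.627. Gna13-202 ends in a last exon of its own of 261 bases (chr11:109380215-109380475), and the posterior SD of its count was at most 2.55% of that count. Gm11696, on the opposite strand, overlaps exons of Gna13, by 151 bases in the longest overlap of any exon pair, and measured 0.847 TPM on average.

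Gnaq (ENSMUSG00000024639.5, chr19:16132831-16387463, plus strand) encodes the widely expressed Gq subunit that activates phospholipase C beta. It measured 2.22, 1.81 and 1.92 TPM, from only 74, 35 and 54 estimated counts. Its level stood higher than that of 55.7% of protein-coding genes, undetected ones included. Gnaq-201, of 359 codons, took 54.1%, 30.8% and 50.0% of the TPM and the retained-intron Gnaq-203 34.2%, 44.0% and 50.0%. At these counts the order of the transcripts was not stable, although Gnaq-201 held 85.4% ± 5.99 of the counts.

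Set against the other alpha subunit genes, the 4 described here made up 56.8% ± 0.546 of the summed TPM of 16 genes. The Gi class took 41.5% ± 0.388, the Gs class 34.4% ± 0.858, the G12 class 16.7% ± 0.485 and the Gq class 7.41% ± 0.361. In the Gq class the blood cell subunit gene Gna15 stood at 100.3, 108 and 95.2 TPM and made up 90.4% ± 1.58, whereas Gnaq made up 1.78% ± 0.247. In the G12 class Gna13 made up 91.9% ± 1.77, and Gna12 measured 17.7, 25.9 and 17.8 TPM. Gnas, the stimulatory subunit gene that raises cyclic AMP, was the highest of the 16 in TPM, at 506.9, 525.7 and 517.3. That rank holds on the TPM scale only: by CPM Gnas measured 516, 532 and 523 against 593, 614 and 576 for Gnai2, and the Gs class share was 25.6%. In the second gene table Gnas had 339, 318 and 323 counts, 4.13% of its estimated counts, against 1959, 1920 and 1892 for Gnai2. Of the 16 genes, 10 reached 1 TPM in every library, and Gnat2, a subunit gene of photoreceptors, had 0 counts.

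The 6 RGS genes, chosen with earlier results of these data known, made up 92.1% ± 0.527 of the summed TPM of the 21 RGS family genes. Of that family 9 genes reached 1 TPM in every library. Beyond the 6, Rgs3 stood at 54.0, 59.6 and 49.3 TPM, a range that overlaps those of Rgs14 and Rgs10, and Rgs11 at 13.9, 16.0 and 13.9 TPM. Rgs18, a gene known from platelets, had 0 estimated counts. A count of 0 allows up to 3 counts, or 0.185, 0.206 and 0.207 CPM (counts scaled by TMM library size) in libraries 1, 2 and 3. These limits, like the counts they rest on, cover counting error only. In the second gene table Rgs18 had 2, 0 and 0 counts.

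**Figure D4:**
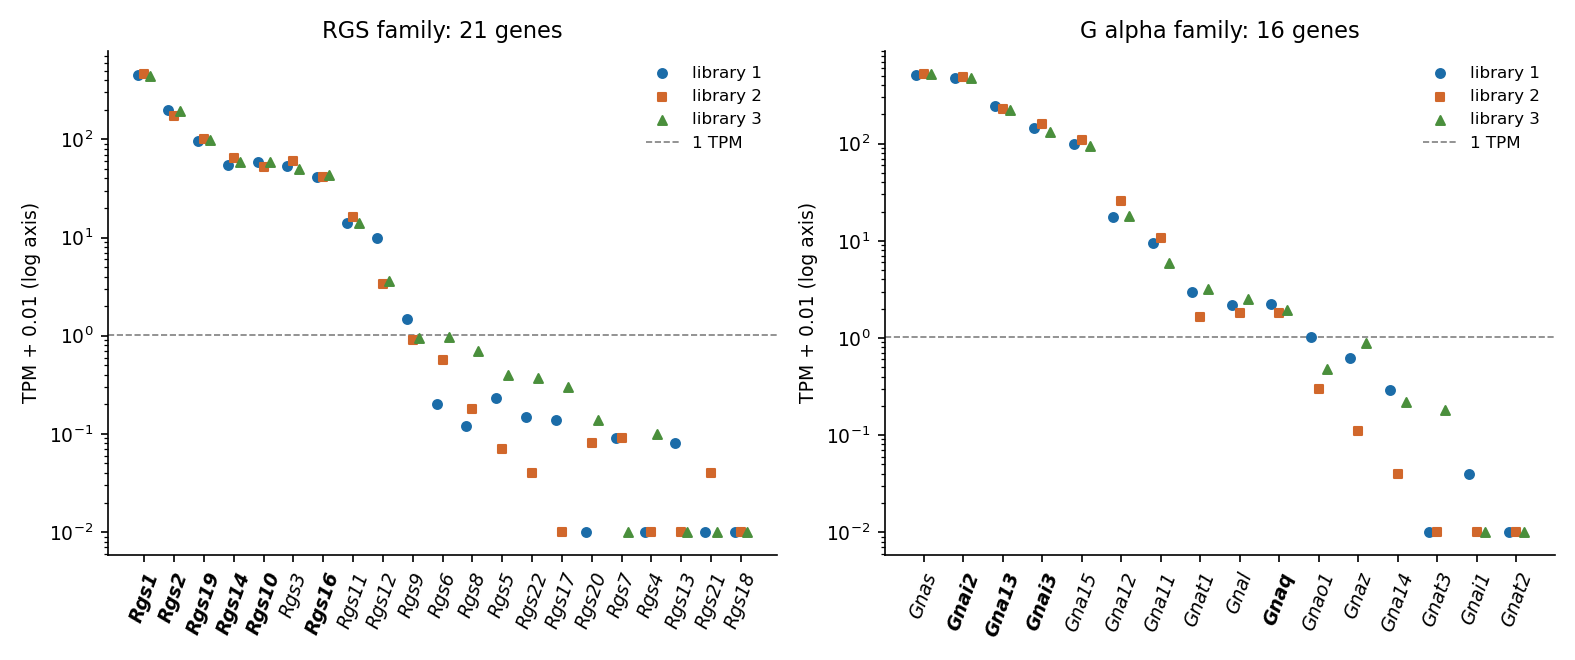
Level of 21 RGS family genes (left) and 16 G alpha family genes (right), in TPM with 0.01 added, on a log axis, with 1 point per library, the 10 described genes in bold and a dashed line at 1 TPM. In every library 9 RGS genes and 10 G alpha genes reach 1 TPM. Rgs18 and Gnat2 lie at the bottom with 0 estimated counts.

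The partners of these proteins were expressed as follows. Of 5 G beta genes 4 reached 1 TPM in every library, led by Gnb1 at 358 ± 12.8 and Gnb2 at 197 ± 17.6 TPM, with Gnb5 at 3.79 ± 1.61. Of 12 G gamma genes 5 did, led by Gng5 at 336 ± 13.5, Gng2 at 79.3 ± 0.594 and Gng10 at 67.1 ± 9.75 TPM. In the second gene table Gng10 had only 6, 5 and 3 counts, 0.722% of its estimated counts, against 6.80% for Gng5 and 14.1% for Gng2. The cause was not tested. The exchange factors that carry an RGS domain and act downstream of Gna13 were uneven: Arhgef1 stood at 837 ± 41.6 TPM, Arhgef12 at 9.21 ± 2.38 and Arhgef11 at 5.41 ± 1.11.

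Other regulators were also present. Of 7 receptor kinases and arrestins, which switch off the receptors themselves, 6 reached 1 TPM in every library, led by Grk6 at 287 ± 24.8, Grk2 at 165 ± 5.41 and Arrb2 at 143 ± 6.41 TPM. Of 5 chaperones and GoLoco regulators of alpha subunits all reached it, led by Gpsm3 at 172 ± 12.4, Ric8a at 83.7 ± 4.24 and Gpsm1 at 15.4 ± 0.842 TPM. Of 16 effector genes 6 did, led by Pik3r5, a regulatory subunit of phosphoinositide 3-kinase gamma, at 111 ± 10.4 TPM. The adenylyl cyclase genes Adcy7 at 106 ± 2.82 and Adcy3 at 23.4 ± 1.77 TPM followed. All of 10 receptor genes that couple to Gi reached 1 TPM in every library, led by S1pr1, Gpr183 at 391 ± 36.8 and Cxcr3 at 302 ± 14.9 TPM.

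The cell type label was checked against defining markers. Cd3e, Cd4, Trac and Cd44 summed to 4319 to 4897 TPM over the libraries. Most of this sum was Trac, at 3136.4, 3659.0 and 3017.4 TPM in libraries 1, 2 and 3, and Cd44 measured 139.4, 122.1 and 130.0 TPM. Together the 4 genes mark CD4 T cells that carry Cd44 and do not by themselves set effector memory cells apart. Ccr7, a lymph node homing receptor gene known to be low in effector memory cells, measured 242.6, 246.1 and 227 TPM, so it was not low here. The sums were 3.34 to 5.14 TPM for the CD8 T cell pair Cd8a and Cd8b1, 0.730 to 0.860 for 3 B cell genes, 0.810 to 1.57 for 3 myeloid genes and 0 to 0.610 for 3 platelet genes, of which Ppbp had 0 counts in all libraries. A haemoglobin gene of red blood cells measured 1.46 to 6.59 TPM. Every one of the 10 described genes except Gnaq stood above each of these values of other cell types.

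Whether the libraries differed was asked for each gene with a chi-square test of its estimated counts over the 3 libraries, at a Benjamini-Hochberg adjusted p of 0.05. Gene counts summed to 14152590 to 16251564 per library. Of the 13949 genes tested, 57.2% differed beyond counting noise, and so did 7 of the 10 described here (Rgs1, Rgs2, Rgs14, Gnai2, Gnai3, Gna13 and Gnaq). Their median chi-square was 10.6, against 8.94 over all genes tested and 14.4 over the 6558 genes with at least 1000 counts. The share of the 10 genes called is therefore read only against that background, which is high.

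The largest chi-square of the 10 was that of Gnai3, with 283, 315 and 257 CPM in libraries 1, 2 and 3, a ratio of highest to lowest of 1.22 (chi-square test on counts, adjusted p = 1.10e-17). Gna13 followed with 561, 507 and 503 CPM and a ratio of 1.12 (adjusted p = 4.28e-13). The ratios of Rgs1 (1.06, adjusted p = 0.0178), Gnai2 (1.07, 0.000483), Rgs2 (1.12, 0.000162) and Rgs14 (1.13, 0.00866) were small, and that of Gnaq (1.89, 0.0150) rested on 163 counts in all. Rgs10 (1.18, adjusted p = 0.0592), Rgs16 (1.05, 0.567) and Rgs19 (1.04, 0.676) did not pass. When each chi-square was divided by the median inflation of 6.45, 4.45% of genes passed, and of the 10 only Gnai3 did (adjusted p = 0.0350), with Gna13 next at 0.130.

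Leaving out a library lowered the share of genes called over the whole table, to 43.8% without library 1, 27.5% without library 2 and 42.3% without library 3, and the calls of the 10 genes changed as well. Without library 2 those of Rgs1, Rgs2, Rgs14, Gnai2 and Gnaq were lost (adjusted p = 0.393, 0.671, 0.888, 0.132 and 0.423), and Gna13 and Gnai3 were called. Without library 1 those of Gna13 and Gnaq were lost (0.645 and 0.0906) and Rgs10 was called (0.0496). Without library 3 that of Rgs1 was lost (0.106). Gnai3 passed under each of these omissions.

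**Figure D5:**
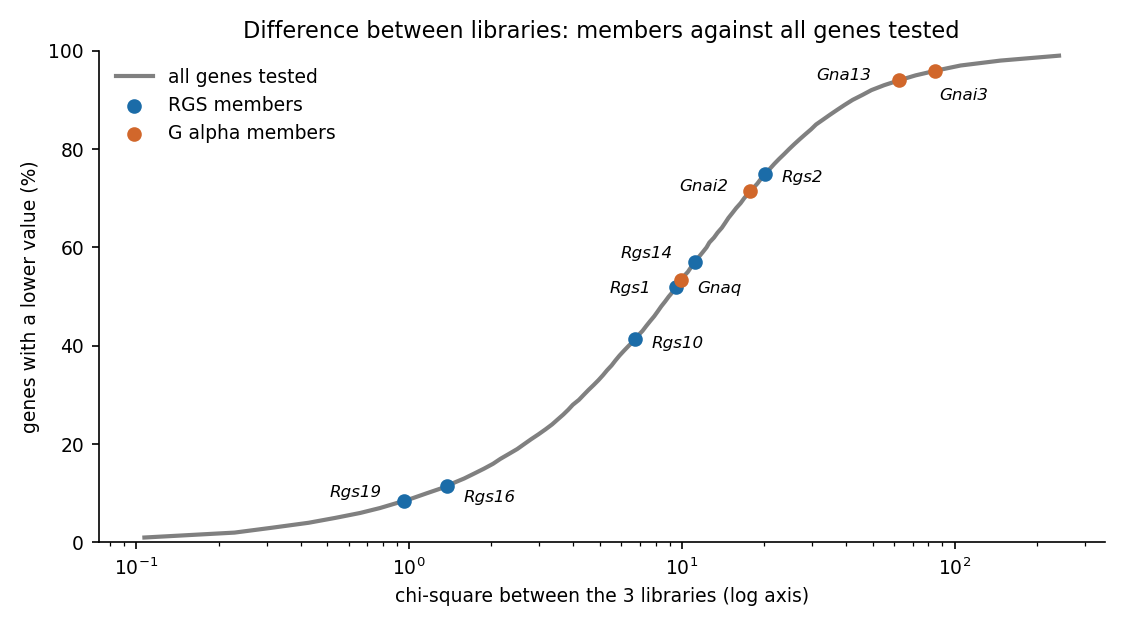
Chi-square between the 3 libraries on a log x axis against the share of tested genes with a lower value in percent on the y axis, with the grey line for all 13949 genes tested and points for the 10 genes. Gnai3 (84.5) and Gna13 (62.6) lie near the upper end and Rgs19 (0.960) and Rgs16 (1.38) near the lower end, with the others around the middle.

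A second deposited gene table, with whole-number counts, gave another view of the same libraries. It summed to 5110680, 4812984 and 4579836 counts in libraries 1, 2 and 3, against 16251564, 14878641 and 14152590 estimated gene counts. There Rgs1 had 1122, 1062 and 1027 counts and Gnai3 1123, 1061 and 943. The second count was between 19.0% and 63.5% of the estimated count, lowest for Gna13 and Gnaq and highest for Rgs14 (776, 769 and 697 counts), and Rgs10 (57.4%) and Rgs19 (44.2%) also kept a larger part than Rgs1 (19.5%). The sources used here do not say how that table was counted, and the cause of these unequal parts was not tested. In it 27.2% of 10291 genes differed between libraries, and of the 10 only Rgs10 did, with 271, 201 and 254 counts (chi-square test on counts, adjusted p = 0.0390), while Gnai3 did not (adjusted p = 0.223).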

How the data were processed

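RNA of 1 mouse was measured in 3 libraries, which form 1 group. The members and gene lists were chosen with earlier results of these data known. The authors deposited, per the file headers, expected counts (estimated counts that share ambiguous reads), TPM, FPKM, posterior mean counts and TPM, an isoform percent per transcript, and a posterior SD of each count, whose signal was used as the assignment uncertainty. The build is mm10 with GENCODE M21, per the labels and identifiers. A second deposited table holds whole-number counts per gene. The sources used here name no quantifier, library kit or strand setting. RNA was sheared to fragments of 100 to 300 bases, per the labels.

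Levels are deposited TPM. Rows naming no mouse gene were left out (tRNA rows, at most 0.0102% of counts, and spike-in and phage rows, 0.179% to 0.572%). Rounded expected counts of each gene went into a chi-square test over 3 libraries (2 degrees of freedom) with TMM library sizes (edgeR 4.0.16) and at least 30 counts in all, with Benjamini-Hochberg adjustment over all genes tested. Transcript shares are percent of the gene's summed TPM or counts. The test was tried on simulated counts that held counting noise and 200 changed genes. These libraries had a median inflation of 6.45, a spread that the simulation did not hold, so it cannot show how the test behaves under it. Alternatives were other library sizes (DESeq2 1.42.0), count filters, inflation correction, columns and tables, and leaving out each library. Named are the 10 genes with their 2 leading transcripts, other family genes with a mean of at least 10 TPM, and the 3 highest genes of each partner list. Gnb5, Ccr7, Rgs18, Gnat2, Gm28513, Gm11696 and transcripts beyond the leading 2 were named after their values were seen. Analyses used Python 3.11.15, numpy 2.4.6, scipy 1.17.1, pandas 2.3.3, matplotlib 3.10.9 and R 4.3.3. Some listed items are not reported here.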

Additional observations from a re-analysis of the deposited data

How the results depend on the processing

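Of the 10 genes, 7 differed between libraries, against 57.2% of all genes tested. After division by the median inflation 1 did, against 4.45% of all genes. Only Rgs10 did by the counts of the second gene table, against 27.2% of all genes. When a library was left out 2 to 6 did, against 27.5% to 43.8% of all genes. With total gene counts in place of TMM 5 did, against 54.5% of all genes (Rgs1, Rgs14 and Gnai2 lost, Rgs10 gained). The same 7 as in the main test differed with DESeq2 size factors (57.3% of all genes) and posterior mean counts (56.9%). They also did with at least 100 counts (61.9%) and with no minimum count, where the share fell to 25.9% of 36258 genes tested. The Gi class share of 41.5% was 42.5% by CPM, 72.7% over the 4 described subunit genes alone, and, in settings chosen after seeing the data, 43.0% over protein-coding transcripts and 63.1% without Gnas. At 0.5 and 5 TPM, 10 and 8 RGS genes and 10 and 7 G alpha genes were detected. In settings chosen after seeing the data, Gnas over Gnai2 was 1.08 in TPM but 0.882 by CPM and 0.170 in the second gene table; the cause was not tested. The order of the 10 genes was the same by posterior mean TPM (FPKM is proportional to TPM and tests nothing); by CPM, which is not scaled by length, 2 of 10 held their rank. By posterior mean TPM the leading transcript share of Rgs10 moved by more than its SD, to 90.3%, and over protein-coding transcripts that of Gnai2 did, to 87.1%; Rgs14 and Gnaq have 1 protein-coding transcript each. No paired analysis was possible because the series has 1 group. With 163 counts in all, depth limits Gnaq most.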
